A study of Homo sapiens with 51 samples.

Results

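The 6 libraries described here came from PK45H, a human pancreatic ductal adenocarcinoma (PDA) cell line: 3 made after transduction with OVOL2 and 3 made after transduction with mCherry. They were chosen by their titles, as the PK45H libraries of these names that do not mention M2rtTA, and they are 6 of the 51 libraries of the series. All 6 cultures received a lentivirus carrying an open reading frame at a multiplicity of infection of 2, with 8 µg/ml polybrene. On the day after, both groups were put under 2.5 µg/ml of puromycin, for selection, together with 0.6 µg/ml of doxycycline. The groups thus differed in the open reading frame alone: OVOL2, or mCherry, a fluorescent protein used as the negative control. RNA was collected after 6 days, and 100 ng per library went into PLATE-seq, which barcodes 3′-end cDNA well by well before pooling. The rest of the series held untreated PK45H libraries (3), the same PK45H pair with M2rtTA added, matching sets in the PDA lines KP4 and PANC1, and untreated HPAFII and PATU8988S. M2rtTA is a transactivator that drives tetracycline-responsive promoters when doxycycline is present. None of the 6 cultures received it, and the promoter in front of the open reading frames is not given in the sources used here. Transductions were in triplicate, and PK45H is 1 line, so p-values measure the spread between wells of this line.

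OVOL2 is a zinc-finger transcription factor of epithelia that represses transcription at many of its targets. It is known for holding back ZEB1, the repressor of E-cadherin and of other junction genes, and so for opposing the epithelial-mesenchymal transition, in which cells lose junctions and apical polarity and take up a contractile, matrix-producing program. In PDA, lines that have lost junction genes and express vimentin are often described as mesenchymal-like or quasi-mesenchymal.

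Library totals were 2439323 to 6051551 counts, with 16431 to 17726 genes detected and 24.4 to 27.1% of counts from mitochondrially encoded genes. The shallowest library, mCherry replicate 2, also stood apart from its mates on the second principal component (23.2% of the variance), while the first (36.3%) separated the groups. Its log2 CPM correlated with those of its mates across genes at r = 0.922 and 0.921, against 0.948 between the other mCherry pair. Markers of the labelled tissue were present: KRT7 held 3794 to 11466 counts in each library and KRT18 1619 to 8758, whereas CFTR held at most 3. Leukocyte and endothelial markers were low. The 16 leukocyte genes summed to 4.77 to 8.1 CPM (here by library total) with OVOL2 and 5.17 to 8.2 with mCherry, with CD3D at 0 in every library, and the 12 endothelial genes to 16.9 to 19.1 and 18.7 to 23.4. The 16 acinar and endocrine genes summed to more, 88.5 to 159 CPM with OVOL2 and 94.7 to 486 with mCherry. Among them NEUROD1, an endocrine transcription factor, held 165 to 1881 counts per library.

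The OVOL2 gene itself was not called. Counts of OVOL2 were 5, 8 and 9 in the 3 OVOL2 libraries and 9, 1 and 5 in the mCherry libraries, and the log2 fold change was 0.12 (SE 0.56, edgeR adjusted p = 0.928). Its sign turned when a library was left out, to −0.20 without mCherry replicate 2. PLATE-seq reads start at RNA 3′ ends, and whether the vector's transcript carries the 3′ end of the OVOL2 gene is not given in the sources used here, so this count does not check the label. In the M2rtTA set, which used other libraries of the same line, the OVOL2 reading was higher with OVOL2 than with mCherry. That difference was 1.98 on the log2 scale (edgeR adjusted p = 0.0135). OVOL1, its paralog, held 2 counts in all with OVOL2 and 1 with mCherry. GRHL2, another transcription factor of epithelia, held 7 and 19 counts in all and was too low to be tested.

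OVOL2 against mCherry changed 1139 of 13583 genes tested in PK45H, or 8.39% (edgeR quasi-likelihood test, adjusted p under 0.05). Of these, 486 were higher (3.58% of genes tested) and 653 lower (4.81%). The falls were larger: their median absolute log2 fold change was 1.25, against 0.92 for the rises, and 439 genes fell at least 2-fold where 211 rose as much. At 8-fold or more, 29 genes rose and 35 fell. The 3 OVOL2 and 3 mCherry libraries did not overlap in 1106 of the called genes, or 97.1%, against 27.7% of all genes tested. The calls came from these same libraries, so this separation follows largely from the call. In all 6 fits that left out 1 library, 190 of the higher and 322 of the lower calls held. The count moved most with the OVOL2 group: 701 genes were called without OVOL2 replicate 3 (276 higher, 425 lower) and 749 without OVOL2 replicate 1 (312 higher), against 943 without mCherry replicate 3. Higher calls numbered 290 without mCherry replicate 1 and 318 without OVOL2 replicate 2. Fitting only the 6 libraries gave 628 calls. In every gene list described here as having 0 calls in one direction and calls in the other, edgeR had at most 3 genes at an unadjusted p under 0.05 in that direction and DESeq2 called at most 1. Since these are bulk libraries, fewer cells of a kind and less RNA per cell cannot be told apart.

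**Figure D1:**
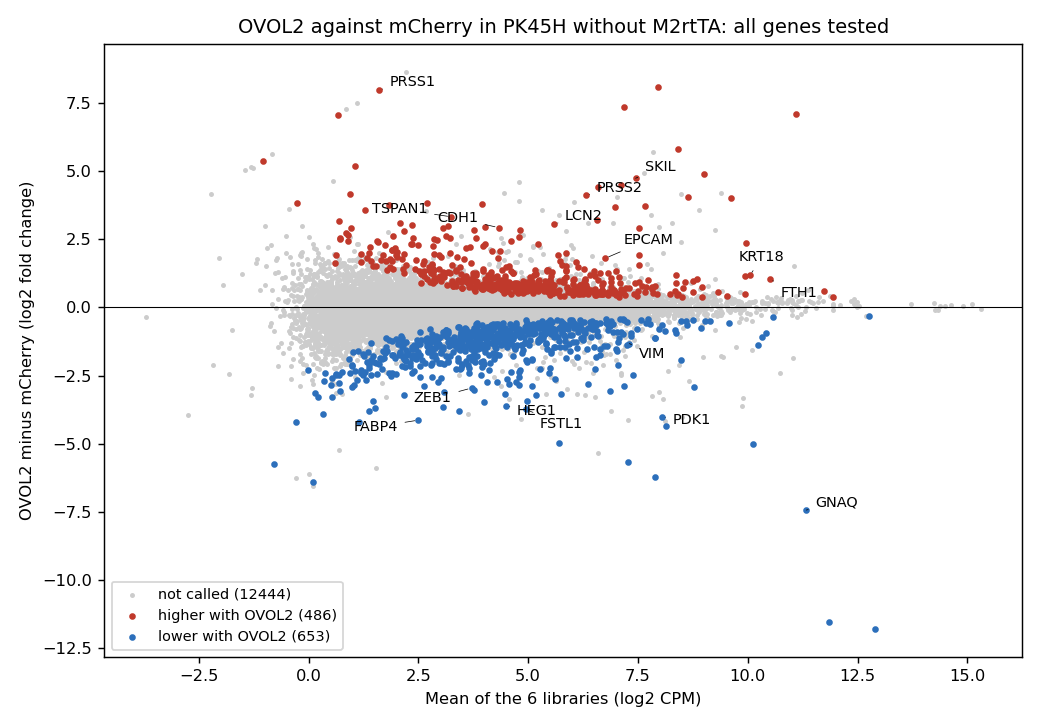
Log2 fold change of OVOL2 over mCherry against mean level (log2 CPM) for the genes tested; 2 genes without counts in these 6 libraries are not drawn. Red points are the 486 higher and blue the 653 lower genes, and labels mark genes described in the text. Most called genes lie within a few log2 units of 0, and several of the most distant points, GNAQ, PDK1 and SKIL among them, rest on a single library.

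Untreated PK45H cells resembled the mCherry cells at most of these genes. The untreated mean lay on the mCherry side of the midpoint for 460 of the 486 higher and 565 of the 653 lower genes. For mCherry against untreated, edgeR called 1 of 13583 genes, AKR1C2 (0.00736%). At an unadjusted p under 0.05 it had 1084 genes, and DESeq2 called 26. The edgeR count was 0 without mCherry replicate 1 or 3 and 5 without mCherry replicate 2. The labels give no virus, polybrene, puromycin or doxycycline for untreated cells, so this contrast joins all of these with mCherry itself. Few calls do not show that the 2 groups were alike. With untreated libraries in place of mCherry as the control, 1629 genes were called, 760 higher and 869 lower. The 2 comparisons share their OVOL2 libraries.

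Several genes of cell-cell adhesion were higher with OVOL2. Levels are given as CPM scaled with edgeR's TMM factors, in replicates 1, 2 and 3 in that order. CDH1, which encodes E-cadherin, the adhesion molecule of epithelial adherens junctions, stood at 35.9, 28.4 and 42.0 CPM in the OVOL2 libraries and at 3.23, 4.82 and 5.86 CPM in the mCherry libraries. The ranges were far apart, and the log2 fold change was 2.93 (SE 0.29, edgeR adjusted p = 2.74e-05). EPCAM, an epithelial adhesion protein, read 174, 165 and 164 CPM with OVOL2 and 42.7, 61.5 and 40.8 CPM with mCherry. Its OVOL2 libraries were again all higher, by 1.80 (SE 0.17, edgeR adjusted p = 1.36e-05), and its 3 untreated libraries, at 49.8, 40.9 and 41.2 CPM, lay with mCherry. ESRP1, the splicing regulator that sets epithelial isoforms, was low in both groups, at 5.44, 6.24 and 6.56 CPM against 1.74, 1.61 and 0.901 CPM. The groups did not overlap, and ESRP1 rose by 2.12 (SE 0.42, edgeR adjusted p = 0.00644), with an edgeR adjusted p of 0.0557 when all libraries were thinned to the smallest. These 3 were among the 4 higher calls in 13 tested genes of adherens junctions and epithelial adhesion, whose median log2 fold change was 0.63, where the median of all genes tested was −0.0046. All 4 held in each fit with 1 library left out. The 1 lower call, NECTIN1, a junctional immunoglobulin protein (−1.75, SE 0.49, edgeR adjusted p = 0.0421), was lost in 5 of these 6 fits, those without OVOL2 replicate 2 or 3 or without any 1 mCherry library.

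Among 22 tested tight junction genes, 5 were higher and 0 lower (median 0.41). F11R, which encodes the junctional adhesion molecule JAM-A, was at 108, 112 and 118 CPM in the OVOL2 and 44.5, 42.6 and 41.0 CPM in the mCherry libraries, a tight spread in both groups, and rose by 1.40 (SE 0.16, edgeR adjusted p = 7.37e-05). CRB3, the apical Crumbs protein that helps place tight junctions, was near the limit of detection, at 3.31, 4.44 and 1.64 CPM against 0.745, 0.402 and 0.225 CPM. Its lowest OVOL2 library was above its highest mCherry library, and the change was 2.72 (SE 0.57, edgeR adjusted p = 0.00935), or 3.32 without mCherry replicate 1. Thinned to the smallest library, CRB3 had an edgeR adjusted p of 0.0628. CLDN1, CLDN4 and LSR, 2 claudins and the receptor of tricellular junctions, were the other higher calls, and none of these 3 held in all fits with 1 library left out: 3 tight junction genes were called without mCherry replicate 2 and 3 without OVOL2 replicate 3. Of 9 desmosomal genes, JUP (plakoglobin, 1.99, SE 0.20, edgeR adjusted p = 3.3e-05), DSG2 (desmoglein 2, 1.06, SE 0.17, edgeR adjusted p = 0.0013) and PKP3 (plakophilin 3, 1.99, SE 0.43, edgeR adjusted p = 0.0102) were higher and 0 lower. JUP stood at 76.6, 86.1 and 117 CPM against 22.6, 23.3 and 24.6 CPM, so that the OVOL2 libraries were all well above the mCherry libraries while differing among themselves more than the mCherry libraries did. The PKP3 call alone was lost in 1 of the 6 fits.

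Apical polarity and epithelial trafficking held 10 higher and 0 lower genes among 34 tested, with a median of 0.88. MYO5B, the motor that carries recycling endosomes to the apical surface, was at 22.7, 19.7 and 21.1 CPM with OVOL2 and 4.47, 4.42 and 4.73 CPM with mCherry, which is 2.21 (SE 0.17, edgeR adjusted p = 2.95e-06). MAL2, a protein of apical transcytosis, was at 45.1, 50.3 and 53.5 CPM against 7.20, 2.81 and 9.69 CPM, and rose by 2.85 (SE 0.29, edgeR adjusted p = 3.62e-05). KDF1, a regulator of epidermal differentiation, stood at 23.6, 23.2 and 33.2 against 4.72, 8.84 and 3.15 CPM. In KDF1 the mCherry libraries spread most and still lay below every OVOL2 library (2.33, SE 0.30, edgeR adjusted p = 0.000246). LLGL2, a basolateral polarity protein of the scribble group, rose by 1.87 (SE 0.31, edgeR adjusted p = 0.00199), and BSPRY, an epithelial B-box protein, by 3.00 (SE 0.51, edgeR adjusted p = 0.0021). CDC42BPG, a kinase downstream of CDC42, was the last of the 6 calls that held without any 1 library. RAB17, SYTL1, STAP2 and GALNT3 were called in the full fit, and 6 genes of this list were left without OVOL2 replicate 1 and 6 without OVOL2 replicate 2. RAB25, the Rab11-family member of epithelia, did not pass (0.21, edgeR adjusted p = 0.87).

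**Figure D2:**
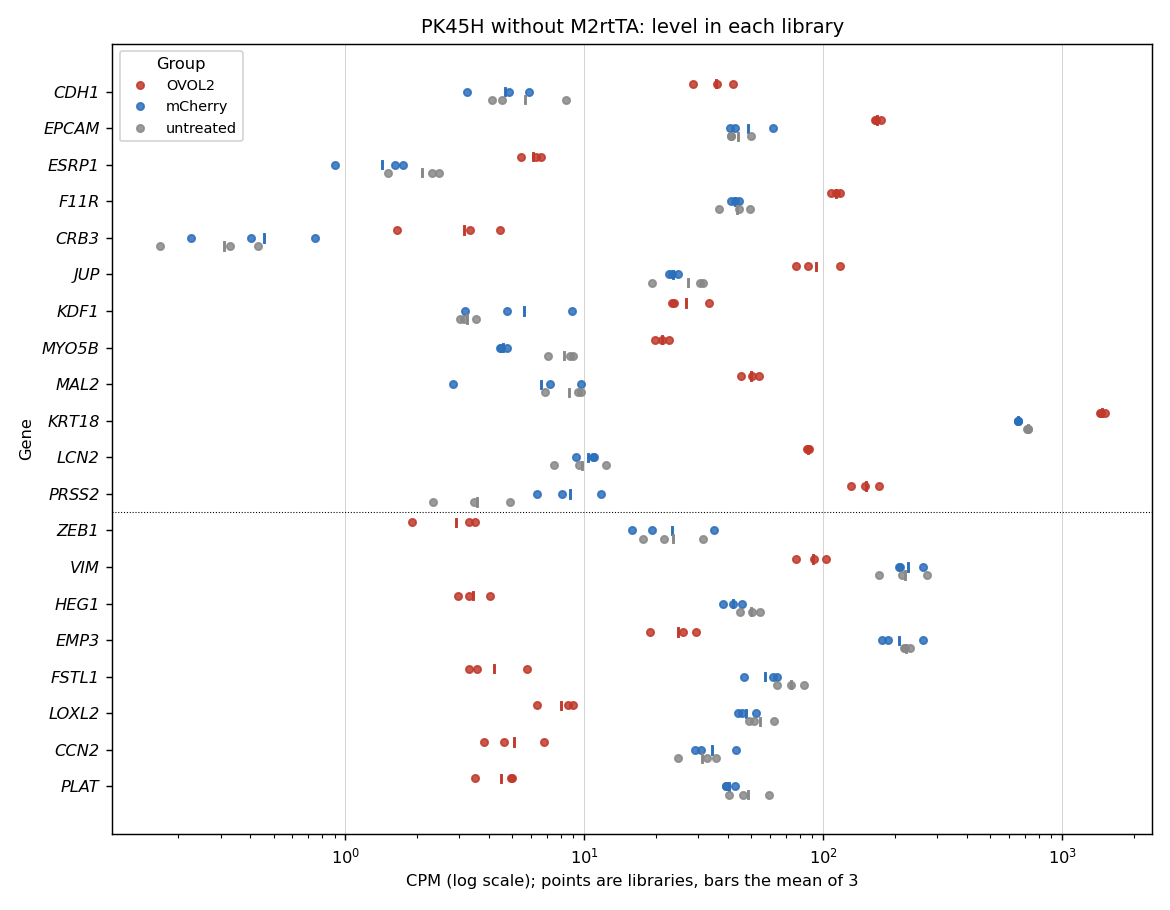
CPM on a log scale in each of the 3 OVOL2 (red), 3 mCherry (blue) and 3 untreated (grey) PK45H libraries without M2rtTA, with bars at the group means. Above the dotted line stand genes higher and below it genes lower with OVOL2. Red points do not overlap blue points in any of the 20 genes drawn, and grey points lie near blue in most of them. All 20 were chosen among called genes, so the gap between red and blue is no added support.

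The RefSeq promoter sequences (GRCh38.p14, from 250 bases before to 50 after the start) were searched for 2 motifs, and 10693 of the 13583 genes tested had one. The first is the core that OVOL proteins are known to bind, CCGTTA, which reads as TAACGG on the other strand. The second is the E-box bound by the ZEB and SNAI repressors, CACCTG, which reads as CAGGTG on the other strand. The letters of the first were in 4.15% of the promoters of tested genes, 9.6% of those called lower and 2.99% of those called higher. At 4-fold or more they were in 14 of 93 (15.1%) of the lower and 2 of 51 (3.92%) of the higher genes. Letters of the E-box were in 18.3% of promoters of tested genes, in 31.2% of those called higher and in 24 of 51 (47.1%) of those higher by at least 4-fold, against 78 of 521 of those called lower. These shares describe letters, not occupied sites, and no test was made. Median GC content was 65.0% over tested promoters, 65.3% for higher and 66.3% for lower genes. It was 61.0% for the genes higher by at least 4-fold and 64.3% for those lower by as much. The 250 bases before the start are shown for CRB3, MYO5B and KDF1 as junction and polarity genes that rose and whose promoters hold the E-box more than once, with all matches to either motif in capitals, 5′ to 3′ along the gene's strand.
CRB3 (chr19:6464021-6464270, plus strand): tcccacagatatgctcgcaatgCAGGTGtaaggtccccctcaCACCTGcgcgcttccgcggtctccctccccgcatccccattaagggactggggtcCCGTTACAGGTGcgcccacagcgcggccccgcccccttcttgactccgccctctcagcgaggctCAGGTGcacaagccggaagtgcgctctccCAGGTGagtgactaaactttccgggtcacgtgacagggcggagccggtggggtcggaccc
MYO5B (chr18:50195148-50195397, minus strand): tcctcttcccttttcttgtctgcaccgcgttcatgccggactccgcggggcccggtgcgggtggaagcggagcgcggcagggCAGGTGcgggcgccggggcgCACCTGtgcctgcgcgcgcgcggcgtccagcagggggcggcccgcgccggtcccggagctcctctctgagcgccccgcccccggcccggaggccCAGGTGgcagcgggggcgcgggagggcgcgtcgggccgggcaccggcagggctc
KDF1 (chr1:26960469-26960718, minus strand): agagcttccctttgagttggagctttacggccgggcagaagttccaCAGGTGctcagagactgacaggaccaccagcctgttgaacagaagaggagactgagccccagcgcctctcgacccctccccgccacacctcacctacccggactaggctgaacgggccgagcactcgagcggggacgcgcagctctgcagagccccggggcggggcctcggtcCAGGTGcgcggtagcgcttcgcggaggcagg
The E-box stands 5 times in CRB3, 3 times in MYO5B and 2 times in KDF1. In CRB3 one of them directly adjoins a CCGTTA, which gives the run of 12 capitals.

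Shown likewise are 3 genes that fell and hold CCGTTA. AAAS, a nucleoporin, was the only called gene among 30 tested nucleoporins, at 18.2, 9.86 and 13.1 CPM with OVOL2 and 40, 26.1 and 49.8 CPM with mCherry. Its groups did not overlap, and it changed by −1.51 (SE 0.27, edgeR adjusted p = 0.00311). NEXN, an actin-filament protein, and GPX8, a peroxidase of the endoplasmic reticulum, were chosen after their values were seen. Both changed by −2.64 (edgeR adjusted p = 1.34e-05 for NEXN and 1.49e-05 for GPX8).
AAAS (chr12:53321611-53321860, minus strand): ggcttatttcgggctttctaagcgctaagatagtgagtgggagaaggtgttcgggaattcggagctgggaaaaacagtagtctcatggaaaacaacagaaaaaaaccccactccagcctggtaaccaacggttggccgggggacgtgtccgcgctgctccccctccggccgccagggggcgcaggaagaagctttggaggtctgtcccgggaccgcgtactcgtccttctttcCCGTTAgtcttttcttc
NEXN (chr1:77888374-77888623, plus strand): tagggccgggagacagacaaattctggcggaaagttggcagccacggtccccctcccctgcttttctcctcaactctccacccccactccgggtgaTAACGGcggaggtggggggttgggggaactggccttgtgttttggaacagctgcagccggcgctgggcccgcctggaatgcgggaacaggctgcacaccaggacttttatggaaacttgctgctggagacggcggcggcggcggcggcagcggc
GPX8 (chr5:55159921-55160170, plus strand): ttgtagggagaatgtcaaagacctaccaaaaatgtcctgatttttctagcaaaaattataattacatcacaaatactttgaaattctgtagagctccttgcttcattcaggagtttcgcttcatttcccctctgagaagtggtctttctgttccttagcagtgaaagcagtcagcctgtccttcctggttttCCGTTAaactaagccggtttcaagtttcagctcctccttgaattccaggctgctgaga
Each holds the 6 letters once and no E-box in these 300 bases. The ZEB1 entry of the table held the E-box once and no CCGTTA. The entry of ZEB1-AS1, the antisense neighbour of ZEB1, held the OVOL core 1 time.

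Of 19 keratins listed, 8 were tested, and 5 of these were higher and 0 lower. KRT7, KRT10 and KRT81 did not pass, and all 8 had a positive log2 fold change (median 1.14). With mCherry, KRT15 held 3, 1 and 1 counts and KRT81 held 2, 0 and 4. Genes this low with mCherry pass the filter mainly where they are higher elsewhere, so the sign of these 2 adds no support. KRT18, a keratin of simple epithelia, was at 1510.4, 1439 and 1456 CPM in the OVOL2 and 653, 651 and 652 CPM in the mCherry libraries. This was among the tightest differences in the data, 1.17 (SE 0.09, edgeR adjusted p = 2.18e-06). Its usual partner KRT8 rose by 0.95 (SE 0.20, edgeR adjusted p = 0.0092), KRT19, the keratin of ducts, by 1.12 (SE 0.14, edgeR adjusted p = 0.000152) and KRT80 by 1.15 (SE 0.16, edgeR adjusted p = 0.000369). KRT15 was called at a low level, and its call held in only 1 of the 6 fits, the others each bringing the keratin count to 4. DMKN, a secreted protein of stratified epithelia, rose by 1.66 (SE 0.17, edgeR adjusted p = 3.3e-05). Of 11 tested ductal PDA markers, 4 were higher (KRT8, KRT18, KRT19 and EPCAM) and 0 lower. Of 16 tested markers of the basal-like PDA type, 7 were higher and 0 lower (median 0.88): S100A2, CST6, FGFBP1, AREG, C16orf74, KRT15 and SLC2A1, of which the first 5 held without any 1 library. CST6, a cysteine protease inhibitor, was among the largest rises, from 1.24, 0.804 and 0.451 CPM with mCherry to 13.9, 10.5 and 11.7 CPM with OVOL2 (3.83, SE 0.49, edgeR adjusted p = 0.000246). Both CST6 and KRT15 were near the floor with mCherry, so passing the filter favoured a rise in them and in the count of 7. FOXA2, an endoderm transcription factor, was the 1 call among 15 epithelial transcription factors (1.5, SE 0.31, edgeR adjusted p = 0.00854).

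The largest rises with no overlap of the groups and a mean of at least 5 CPM included secreted and membrane proteins. PRSS2, which encodes trypsin 2, was at 149, 131 and 171 CPM with OVOL2 and 11.7, 8.04 and 6.31 CPM with mCherry, and changed by 4.11 (SE 0.34, edgeR adjusted p = 6.19e-06). PRSS1, trypsin 1, had 22, 43 and 29 counts in the OVOL2 libraries and 0 in each mCherry library, so it was at least 22.7-fold higher against a floor of 3 counts over the mCherry group. PRSS3, a further trypsin gene, did not pass (−0.31, edgeR adjusted p = 0.681). The trypsin genes are near-identical, and how the counting shared their reads is not given in the sources used here. PRSS1 was the 1 higher call among the 3 tested of 16 listed acinar and endocrine markers. It held 0, 1 and 1 counts untreated, so it passed the filter only by being higher elsewhere. That share is thus no result about acinar genes. The 2 others, CPB1 and NEUROD1, were present and not called. CPB1 held 65, 143 and 65 counts with OVOL2 and 96, 58 and 100 with mCherry. NEUROD1 held 275, 772 and 413 counts with OVOL2 and 1881, 165 and 563 with mCherry. CPA1, INS and CHGA held 0 counts in all 6 libraries.

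LCN2, the iron-binding lipocalin secreted by inflamed epithelia, had the smallest p of the genes that rose. It stood at 87.5, 85.1 and 86.1 CPM against 10.9, 10.9 and 9.24 CPM, a spread of a few CPM within groups and 3.06 (SE 0.18, edgeR adjusted p = 5.73e-07) between them. C1orf116, a gene of unclear function expressed in epithelia, was at 28.6, 29.2 and 29.5 against 2.73, 1.21 and 2.03 CPM (3.80, SE 0.26, edgeR adjusted p = 1.39e-06). TSPAN1, a tetraspanin, rose by 3.32 (SE 0.40, edgeR adjusted p = 0.000135), and B3GNT3, a glycosyltransferase that extends mucin-type glycans, by 2.98 (SE 0.36, edgeR adjusted p = 0.000133). ZNF165, a zinc-finger protein best known from testis, rose by 2.45 (SE 0.15, edgeR adjusted p = 5.73e-07), from 6.96, 8.84 and 6.98 CPM to 44.7, 41.6 and 37.3 CPM. Each of these 5 kept its call without any 1 library. Of 14 tested membrane serine proteases and inhibitors, the inhibitors SPINT1, SPINT2 and SERPINB5 were higher and 0 genes lower, while 8 of the 14 changes were negative (median −0.30). SPINT1, an inhibitor of matriptase and HGF activator, rose by 2.07 (SE 0.36, edgeR adjusted p = 0.00234), or by 2.69 without mCherry replicate 2. SERPINB5 (maspin) rose by 2.48 (SE 0.45, edgeR adjusted p = 0.0038), or by 3.39 without mCherry replicate 2. SPINT2 lost its call without OVOL2 replicate 2 and without mCherry replicate 1 (1.03 and 0.93).

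Some of the largest fitted changes rested on 1 library and say little about the groups. SKIL, a SMAD co-repressor, was at 16.1, 953 and 40.8 CPM in the OVOL2 libraries and 10.2, 14.1 and 13.7 CPM in the mCherry libraries, and its 4.73 became 1.17 without OVOL2 replicate 2 (edgeR adjusted p = 0.519). USP28, a deubiquitinase, went from 3.21 to 1.58 (edgeR adjusted p = 0.147) and LOC100652833 from 3.71 to 2.28 (edgeR adjusted p = 0.127) without that library. GNAQ, a G-protein subunit, was at 275, 55.1 and 15052 CPM in the mCherry libraries against 29.3, 26.3 and 33.6 CPM with OVOL2, and its −7.43 became −2.47 without mCherry replicate 3. PDK1, a mitochondrial kinase, stood at 1339, 39.0 and 109 CPM with mCherry, and its −4.02 became −1.29 without mCherry replicate 1 (edgeR adjusted p = 0.0511). The SKIL and USP28 calls were also lost without any 1 mCherry library, that of LOC100652833 without mCherry replicate 1 or 2, that of PDK1 without any 1 OVOL2 library and that of GNAQ without OVOL2 replicate 2 (edgeR adjusted p = 0.0501). HYKK, named after its value was seen, had the largest fitted fall of all, −11.79, with 45928 CPM in mCherry replicate 2. In 22 called genes (1.93%, 10 higher and 12 lower), 1 library was at least 5-fold above the next of its own group of 3. The same held for 1.76% of all genes tested.

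ZEB1 was the 1 called gene among 9 tested transcription factors of the epithelial-mesenchymal transition. It stood at 1.89, 3.29 and 3.49 CPM in the OVOL2 and 19.1, 35.0 and 15.8 CPM in the mCherry libraries. Every OVOL2 library was far below the lowest mCherry library, and ZEB1 changed by −2.96 (SE 0.34, edgeR adjusted p = 0.00011). ZEB2 (−0.29, edgeR adjusted p = 0.574) and SNAI2 (−0.44, edgeR adjusted p = 0.438) did not pass. All 9 fitted changes were negative, with a median of −0.44, and 2 genes were called lower without mCherry replicate 3. SNAI1 held 1 to 5 counts per library with OVOL2 and 0 to 1 with mCherry, and TWIST1 at most 3, both too low to be tested. ZEB1-AS1, the antisense neighbour of ZEB1, was also lower (−2.36, edgeR adjusted p = 0.00408), but whether the counting used strand is not given in the sources used here.

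VIM, the intermediate filament protein vimentin, was at 76.6, 102 and 91.7 CPM with OVOL2 and 207, 261 and 210.2 CPM with mCherry. The highest OVOL2 library lay well below the lowest mCherry library, and VIM changed by −1.33 (SE 0.18, edgeR adjusted p = 0.000369). It was 1 of 10 lower calls among 29 tested genes of the mesenchymal cytoskeleton and contractile apparatus (median −0.47), with ACTA2, TPM1, CNN3, ACTN1, FSCN1, S100A4, PALLD, ZYX and LMO7. ACTN1, an actin cross-linker, changed by −1.12 (SE 0.15, edgeR adjusted p = 0.000358), ACTA2, smooth muscle actin, by −1.63 (SE 0.33, edgeR adjusted p = 0.00784), and LMO7, an actin-binding junction protein, by −1.68 (SE 0.23, edgeR adjusted p = 0.000378). In each fit with 1 library left out, VIM, ACTA2, ACTN1, FSCN1, S100A4 and LMO7 were lower, and without OVOL2 replicate 1 these 6 were the only ones. TPM4, a tropomyosin, was the 1 higher call (0.55, SE 0.12, edgeR adjusted p = 0.00956).

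Surface proteins of mesenchymal cells were lower in 8 of 27 tested genes and higher in 0 (median −0.59), and all 8 calls held without any 1 library. HEG1, a mucin-like receptor, had the smallest p of all genes: 4.02, 2.96 and 3.28 CPM with OVOL2 and 45.5, 38.2 and 41.7 CPM with mCherry, or −3.62 (SE 0.16, edgeR adjusted p = 4.24e-08). EMP3, a tetraspan membrane glycoprotein, stood at 25.8, 29.4 and 18.9 CPM against 186, 175 and 261 CPM (−3.07, SE 0.19, edgeR adjusted p = 5.8e-07). CAVIN3 and CMTM3 changed by −2.89 (SE 0.21, edgeR adjusted p = 1.92e-06) and −1.98 (SE 0.22, edgeR adjusted p = 7.21e-05). CAVIN1, another coat protein of caveolae, CD44, the hyaluronan receptor, and the receptor kinase AXL (−0.95, SE 0.19, edgeR adjusted p = 0.00605) were also lower. PMP22, a tetraspan protein related to EMP3, had one of the largest falls, from 17.9, 17.7 and 24.8 CPM to 0.709, 1.48 and 2.05 CPM (−3.79, SE 0.28, edgeR adjusted p = 1.92e-06). CDH2, or N-cadherin, was low and did not pass (−2.02, edgeR adjusted p = 0.0746). The 13 fibroblast markers summed to 35.2 to 45.1 CPM (by library total) with OVOL2 and 53.7 to 67.1 with mCherry, with LUM at 0 in every library. Of 6 tested, 5 had a negative change and only ACTA2 was called, and their part in these falls was not tested.

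Of 38 tested collagens and matrix proteins, 10 were lower and 1 higher (median −0.47). LOXL2, a collagen cross-linking oxidase, was at 8.98, 8.54 and 6.36 CPM with OVOL2 and 45.7, 43.8 and 52.3 CPM with mCherry, a gap far wider than either spread (−2.57, SE 0.19, edgeR adjusted p = 1.92e-06). Its relative LOX changed by −2.73 (SE 0.41, edgeR adjusted p = 0.000923) and COL12A1, a fibril-associated collagen, by −2.87 (SE 0.41, edgeR adjusted p = 0.000595). COL5A1, COL6A1, COL6A2, COL13A1, COL18A1, TGFBI and CCN2 made up the rest, and only COL6A1 lost its call in some fits with 1 library left out. COL17A1, the hemidesmosomal collagen of epithelia, was the 1 higher call, at 6.62, 5.75 and 7.79 CPM against 2.24, 2.81 and 1.13 CPM (1.76, SE 0.35, edgeR adjusted p = 0.00709). FSTL1, a secreted matricellular glycoprotein outside this list, had the second smallest p of the genes that fell, from 61.4, 63.9 and 46.4 CPM to 3.55, 5.75 and 3.28 CPM (−3.74, SE 0.23, edgeR adjusted p = 5.73e-07).

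LAMB3, a chain of the laminin that hemidesmosomes bind, moved the other way. It stood at 68.8, 107 and 66.6 CPM with OVOL2 and 19.9, 23.7 and 20.05 CPM with mCherry, groups that did not come near each other (1.93, SE 0.20, edgeR adjusted p = 3.36e-05). Of 23 integrins and laminins tested, 3 were higher, among them LAMB3 and ITGA2, a collagen-binding integrin chain. The ITGA2 groups overlapped, at 29.3, 59.1 and 101 CPM against 39.3, 20.5 and 12.8 CPM, and its call held in 2 of the 6 fits. ITGB1, the common beta chain, was the 1 lower call (−0.78, SE 0.14, edgeR adjusted p = 0.00311). Of 22 tested matrix proteases and genes of the urokinase system, 5 were lower and 0 higher, although the median of the list was 0.15. PLAT, tissue plasminogen activator, was at 4.96, 4.93 and 3.49 CPM against 42.7, 39.0 and 39.0 CPM (−3.17, SE 0.21, edgeR adjusted p = 1.08e-06). Every OVOL2 library was far below every mCherry library. PLAU, urokinase, changed by −2.39 (SE 0.53, edgeR adjusted p = 0.0116), MMP2, gelatinase A, by −1.35 (SE 0.27, edgeR adjusted p = 0.00644), and ADAMTS1 was called in 4 of the 6 fits.

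**Figure D3:**
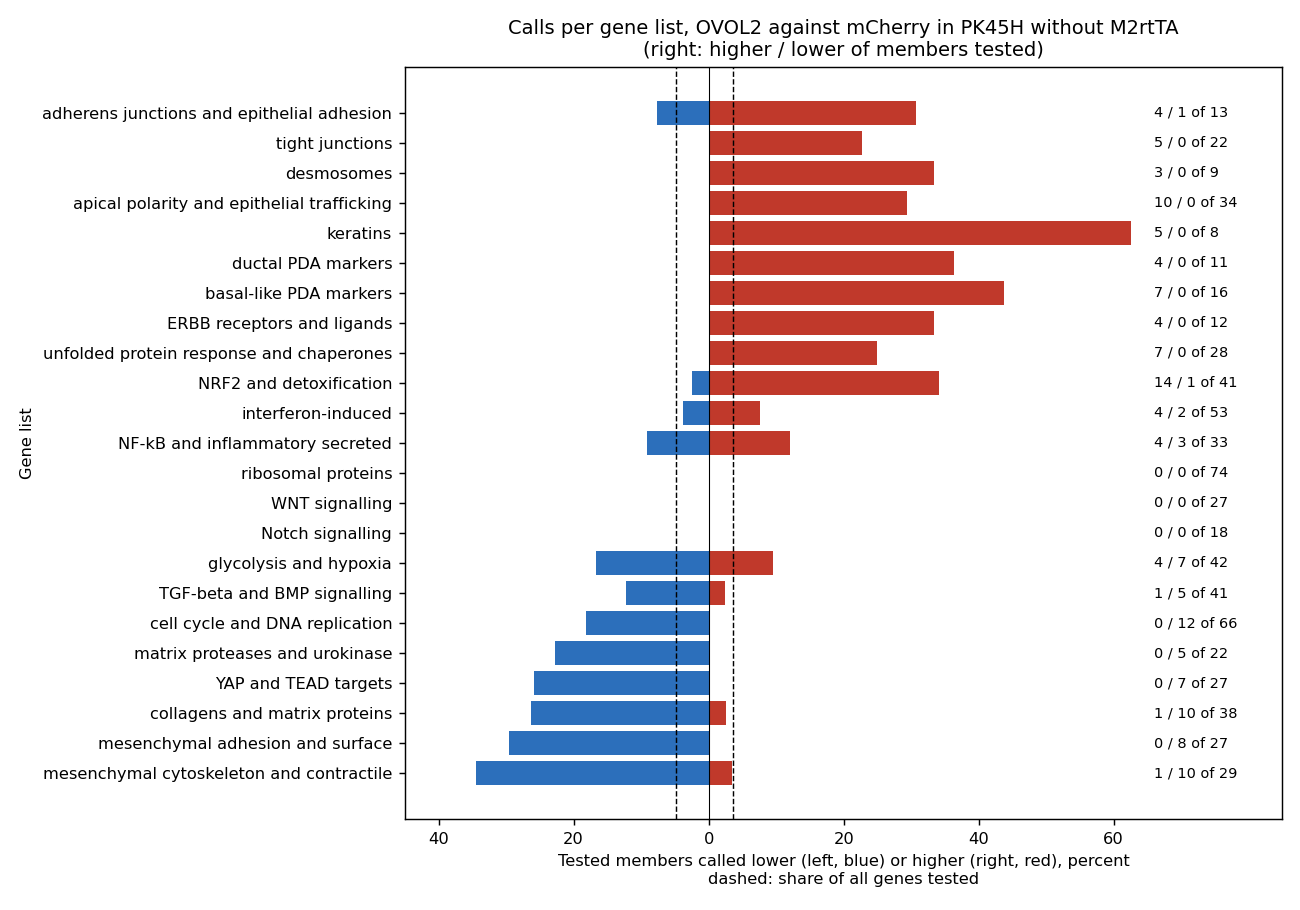
Share of tested members called higher (red, to the right) or lower (blue, to the left) in 23 gene lists, with the counts printed at the right edge and dashed lines at the share of all genes tested (3.58% higher, 4.81% lower). Junction, polarity and keratin lists lie to the right and mesenchymal, matrix and protease lists to the left; ribosomal, WNT and Notch lists have no call. Lists share members and were chosen with earlier results of these data known.

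Signalling genes changed in parts. Of 41 tested genes of TGF-beta and BMP signalling, 5 were lower, among them TGFBR1, the type I receptor (−1.54, SE 0.20, edgeR adjusted p = 0.000283), LTBP2, a latent TGF-beta binding protein (−1.17, SE 0.22, edgeR adjusted p = 0.00425), ID1, a target of BMP signals (−1.17, SE 0.23, edgeR adjusted p = 0.00635), and SMURF2, the last in 1 of the 6 fits only. SKIL, carried by 1 library as given above, was the 1 higher call. Of 27 tested YAP and TEAD targets, 7 were lower and 0 higher (median −0.29). CCN2, connective tissue growth factor, was at 3.78, 4.60 and 6.77 CPM with OVOL2 and 30.8, 43.0 and 29.1 CPM with mCherry (−2.75, SE 0.25, edgeR adjusted p = 1.26e-05). CCN2, AXL and RBMS3 held without any 1 library, while 4 of the 7 were called without OVOL2 replicate 1 and 4 without OVOL2 replicate 3. WNT signalling (27 tested) and Notch signalling (18 tested) had 0 calls, with medians of −0.28 and −0.061. At an unadjusted p under 0.05 edgeR had 4 WNT and 3 Notch genes, and DESeq2 called 1 and 0.

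Among epidermal growth factor receptors and ligands, 4 of 12 tested genes were higher and 0 lower (median 0.68). AREG, which encodes the ligand amphiregulin, was at 49.6, 66.2 and 69.7 CPM with OVOL2 and 13.2, 14.1 and 9.91 CPM with mCherry (2.33, SE 0.28, edgeR adjusted p = 0.000152). Its receptor EGFR was at 262, 289.6 and 299.8 against 171, 123 and 134 CPM (0.99, SE 0.16, edgeR adjusted p = 0.00131), with every OVOL2 library above every mCherry library. ERRFI1, a feedback inhibitor of the receptor, rose by 0.92 (SE 0.19, edgeR adjusted p = 0.0083). With EREG, another ligand, which kept its call in 2 of the 6 fits, these were the 4 calls. Of 28 tested MAPK feedback and immediate early genes, the phosphatases DUSP4 (1.01, SE 0.20, edgeR adjusted p = 0.00693) and DUSP5 (0.84, SE 0.14, edgeR adjusted p = 0.00145) and PHLDA2 were higher, while JUN (−1.09, SE 0.15, edgeR adjusted p = 0.000373), ETV1 (−1.43, SE 0.28, edgeR adjusted p = 0.00609) and ETV5 (−1.54, SE 0.29, edgeR adjusted p = 0.00434) were lower. PHLDA2 alone lost its call in some fits. Among 30 other receptor tyrosine kinases and ligands, EPHB6, FGFBP1, VEGFA and MST1R were higher and FGFR1 and EPHB1 lower, and all 6 held. FGFR1, the fibroblast growth factor receptor of mesenchymal cells, was at 26.0, 29.9 and 30.1 CPM against 75.0, 90.8 and 67.4 CPM (−1.43, SE 0.15, edgeR adjusted p = 4.75e-05). FGFBP1, which releases fibroblast growth factors from the matrix, rose by 2.56 (SE 0.35, edgeR adjusted p = 0.000382).

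Genes of detoxification formed one of the lists with most calls: 14 of 41 tested NRF2 and detoxification genes were higher and 1 lower (median 0.37), and 11 of the 14 held without any 1 library. FTH1, ferritin heavy chain, was at 1969, 1956 and 1903 CPM with OVOL2 and 1000.2, 924 and 919 CPM with mCherry, close within groups (1.04, SE 0.10, edgeR adjusted p = 3.3e-05). ALDH1A3, which makes retinoic acid, rose by 1.69 (SE 0.17, edgeR adjusted p = 3.03e-05) and EPHX1, microsomal epoxide hydrolase, by 1.33 (SE 0.17, edgeR adjusted p = 0.000281). AKR1C2, a steroid and carbonyl reductase, was at 27.9, 31.2 and 26.2 CPM with OVOL2, 3.48, 5.22 and 2.70 CPM with mCherry and 19.2, 19.9 and 19.3 CPM untreated. OVOL2 exceeded mCherry by 2.95 (SE 0.26, edgeR adjusted p = 1.02e-05), but exceeded untreated by only 0.55 (edgeR adjusted p = 0.114). AKR1C2 was the 1 gene that edgeR called between mCherry and untreated. AKR1C3 had the same order, 23.6, 19.4 and 29.5, 4.72, 2.41 and 4.73 and 20.5, 15.2 and 13.7 CPM, and exceeded untreated by 0.55 (edgeR adjusted p = 0.178). Reads of the AKR1C paralogs may be shared between them. GCLM, a subunit of the glutathione-synthesizing ligase and a classical NRF2 target, was the 1 lower call (−0.67, SE 0.16, edgeR adjusted p = 0.0192). It kept its sign but missed the threshold in 3 of the 6 fits, as without mCherry replicate 1 (−0.60, edgeR adjusted p = 0.0764) and without OVOL2 replicate 3 (−0.67, edgeR adjusted p = 0.0649).

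Chaperones of the endoplasmic reticulum and cytosol were higher in 7 of 28 tested genes of the unfolded protein response, with 0 lower and 26 positive changes (median 0.35). HSPA5, the chaperone BiP, was at 427, 424 and 435 CPM against 218, 248 and 233 CPM (0.88, SE 0.11, edgeR adjusted p = 0.000266), and HERPUD1, of the degradation complex, rose by 1.20 (SE 0.22, edgeR adjusted p = 0.0038). XBP1, a transcription factor of this response (0.72, SE 0.14, edgeR adjusted p = 0.00593), DNAJB1, MANF and HSPH1 were also called in every fit, and HSP90AB1 in 2 of 6. Of 36 genes of ATF4 and the amino acid response, 5 were higher and 2 lower, but only DDIT3, which encodes CHOP (0.83, SE 0.16, edgeR adjusted p = 0.00516), and SLC1A4, a neutral amino acid transporter (−1.44, SE 0.21, edgeR adjusted p = 0.000634), held in every fit. Between 2 and 4 of the 5 were called with 1 library left out, 2 of them without OVOL2 replicate 1, OVOL2 replicate 3 or mCherry replicate 1, and 3 without OVOL2 replicate 2 or mCherry replicate 3. Of 41 genes of cholesterol and fatty acid synthesis, 4 were higher and 2 lower, and SCD, the stearoyl desaturase, rose in every fit (0.91, SE 0.17, edgeR adjusted p = 0.00422). Of the 4 higher calls, 2 were left without mCherry replicate 1 or OVOL2 replicate 3.

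Cell cycle and DNA replication genes were lower in 12 of 66 tested and higher in 0. The median was −0.33, and 56 of the 66 changes were negative. CDKN2C, an inhibitor of CDK4 and CDK6, was at 1.65, 1.15 and 3.28 CPM with OVOL2 and 9.19, 14.1 and 12.8 CPM with mCherry (−2.56, SE 0.33, edgeR adjusted p = 0.000279). NUSAP1, a spindle protein, changed by −1.07 (SE 0.17, edgeR adjusted p = 0.00116). PTTG1, or securin, was at 55.5, 46.5 and 47.4 against 254, 80.8 and 308 CPM. Its mCherry replicate 2 was much nearer to the OVOL2 libraries than its mates were (−2.11, SE 0.36, edgeR adjusted p = 0.00246). RRM2, CDC20, TPX2 and CENPF also held in every fit, and TOP2A, AURKA, BUB1 and BUB1B did not. MKI67 and CCNB1, common proliferation markers, did not pass (−0.25, edgeR adjusted p = 0.3, and −0.26, edgeR adjusted p = 0.369).

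Of 53 tested interferon-induced genes, IFI27, IFITM3, IRF7 and IRF9 were higher and IFITM2 and PARP14 lower. That is 11.3% called, near the 8.39% of all genes tested, and the list's median of −0.049 was close to that of all genes. IRF9, the DNA-binding partner of the STATs, was at 13.7, 21.4 and 14.6 CPM against 7.45, 8.84 and 6.31 CPM (1.16, SE 0.22, edgeR adjusted p = 0.00418), with no overlap. PARP14 changed by −1.51 (SE 0.21, edgeR adjusted p = 0.000408). IFITM2 and IFITM3 are paralogs whose reads may not be separable, and the IFITM2 call was lost without mCherry replicate 3 and without OVOL2 replicate 2. Of 33 NF-kB-linked and inflammatory secreted genes, LCN2, CXCL16, C3 and CFB were higher and CXCL5, IL18 and SAA1 lower. C3, the central complement protein, rose by 0.73 (SE 0.14, edgeR adjusted p = 0.00467), and SAA1, an acute phase protein, changed by −2.19 (SE 0.26, edgeR adjusted p = 0.00012), from 25.6, 24.1 and 26.1 CPM to 3.07, 5.75 and 7.59 CPM. CXCL5 and CFB did not hold in every fit. Of 27 antigen presentation genes, 2 were higher (7.41%), among them CD74, the invariant chain, and neither call held throughout: 0 were called without OVOL2 replicate 3, and 1 without any other single library.

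Other groups showed few calls or calls that depended on single libraries. Of 42 genes of glycolysis and hypoxia, 4 were higher and 7 lower, but NDRG1 and VEGFA, both higher, were the only ones to hold in every fit, and the 7 lower calls became 0 without OVOL2 replicate 1 or 3, 1 without OVOL2 replicate 2 and 2 without mCherry replicate 1 or 3. The 4 higher calls became 2 without OVOL2 replicate 1. Of 15 mitochondrially encoded transcripts, ND5 (0.60, SE 0.11, edgeR adjusted p = 0.00496) and RNR1 were higher, and the RNR1 call was lost in 4 of the 6 fits, those without mCherry replicate 1 or 2 or OVOL2 replicate 1 or 3. Of 48 nuclear respiratory chain genes COX7C was higher (0.49, SE 0.11, edgeR adjusted p = 0.0104), and without OVOL2 replicate 3 it kept a change of 0.45 but missed the threshold (edgeR adjusted p = 0.0534). The 74 ribosomal protein genes had 0 calls and a median of 0.20, with 68 of the 74 changes positive; 20 had an unadjusted p under 0.05 with edgeR, and DESeq2 called 6. Of 14 S100 and annexin genes, S100A2 (1.03, SE 0.19, edgeR adjusted p = 0.00373), ANXA1 and ANXA8 were higher and S100A4, S100A10 and S100A16 (−1.51, SE 0.13, edgeR adjusted p = 8.87e-06) lower. Here S100A2, S100A4 and S100A16 held in every fit, and S100A2 was the only higher call without mCherry replicate 2 or any 1 OVOL2 library. CTSC and CTSL, lysosomal cysteine proteases, were lower in every fit (−1.27, SE 0.14, edgeR adjusted p = 5.44e-05 and −1.12, SE 0.19, edgeR adjusted p = 0.0021), and the higher calls CTSD, CTSH and GAA became 0 without OVOL2 replicate 2 and 1 without OVOL2 replicate 1 or mCherry replicate 1 or 2. STEAP1, a surface metalloreductase, changed by −2.14 (SE 0.44, edgeR adjusted p = 0.00812). Of 20 mucin and gastrointestinal differentiation genes, B3GNT3 was the only call, and 15 genes of epithelial ion transport had 0 calls with 14 positive changes (median 0.32), 3 of them at an unadjusted p under 0.05 with edgeR and 2 called by DESeq2.

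Further large falls lay outside these lists. FABP4, a fatty acid-binding protein, was at 0.236, 0.329 and 1.23 CPM against 14.2, 8.04 and 9.91 CPM (−4.13, SE 0.50, edgeR adjusted p = 0.000149), and −5.12 without OVOL2 replicate 3. SYDE1, a GTPase-activating protein, was at 2.84, 2.96 and 2.05 against 35.3, 23.3 and 29.1 CPM (−3.47, SE 0.25, edgeR adjusted p = 1.8e-06), and LIX1L, an RNA-binding protein, at 4.49, 6.74 and 9.84 against 60.4, 66.7 and 67.6 CPM (−3.20, SE 0.25, edgeR adjusted p = 3.71e-06). In each of the 3 the groups were widely separated. CRABP2, which carries retinoic acid to its receptors, fell with little spread, from 50.9, 57.5 and 52.9 CPM to 13.9, 14.3 and 13.9 CPM (−1.93, SE 0.14, edgeR adjusted p = 1.8e-06). RECQL, a DNA helicase, SLC16A9, a carnitine transporter, and LOC112267931 changed by −3.65 (SE 0.52, edgeR adjusted p = 0.000523), −3.09 (SE 0.38, edgeR adjusted p = 0.000152) and −3.42 (SE 0.29, edgeR adjusted p = 7.16e-06).

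Whether these effects were particular to the libraries without M2rtTA was tested on the difference between the OVOL2 effects without and with it, which use separate OVOL2 and mCherry libraries. It passed for 217 of 13583 genes (1.6%). The count fell to between 93 and 113 without 1 of the OVOL2 replicates (93 without replicate 3), to 118 without mCherry replicate 1, to between 100 and 116 without 1 of the mCherry libraries with M2rtTA, and to 144 without OVOL2 with M2rtTA replicate 2. Of the 1139 called genes, 87 were among them, 30 higher and 57 lower without M2rtTA. These 87 were picked among genes called without M2rtTA, which favours larger effects in that set, so their sizes are not compared as a set. The same limit holds for the differing genes named below. Over all genes, OVOL2 with M2rtTA had 2153 calls, 1012 higher and 1141 lower. C1QTNF1, a secreted C1q and TNF-related protein, was at 0.946, 0.821 and 0.82 CPM with OVOL2 and 6.96, 8.44 and 9.01 CPM with mCherry here, and at 12.6, 14.4 and 13.4 and 5.31, 6.20 and 8.01 CPM with M2rtTA. It was thus lower in one set (−3.21) and higher in the other (1.04), a difference of −4.25 (SE 0.32, edgeR adjusted p = 3.69e-05).

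CRABP2 was at 49.5, 58.7 and 47.5 CPM with OVOL2 and 53.7, 56.1 and 63.1 CPM with mCherry in the M2rtTA set, so that its difference of effects was −1.78 (SE 0.19, edgeR adjusted p = 0.000538). MARCKSL1, a regulator of actin at the membrane, changed by −2.29 without and 0.05 with M2rtTA, a difference of −2.34 (edgeR adjusted p = 0.000883). ALCAM, an adhesion protein of the immunoglobulin family, went the other way in size: it was lower in both sets, by −0.93 (SE 0.11, edgeR adjusted p = 0.00012) here and by −2.71 with M2rtTA, a difference of 1.78 (edgeR adjusted p = 0.000114). S100A4 was lower here (−0.85) and higher with M2rtTA (0.96). The difference did not pass for VIM (−0.90, edgeR adjusted p = 0.0869) or ESRP1 (1.10, edgeR adjusted p = 0.339), which does not show that their effects were alike.

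**Figure D4:**
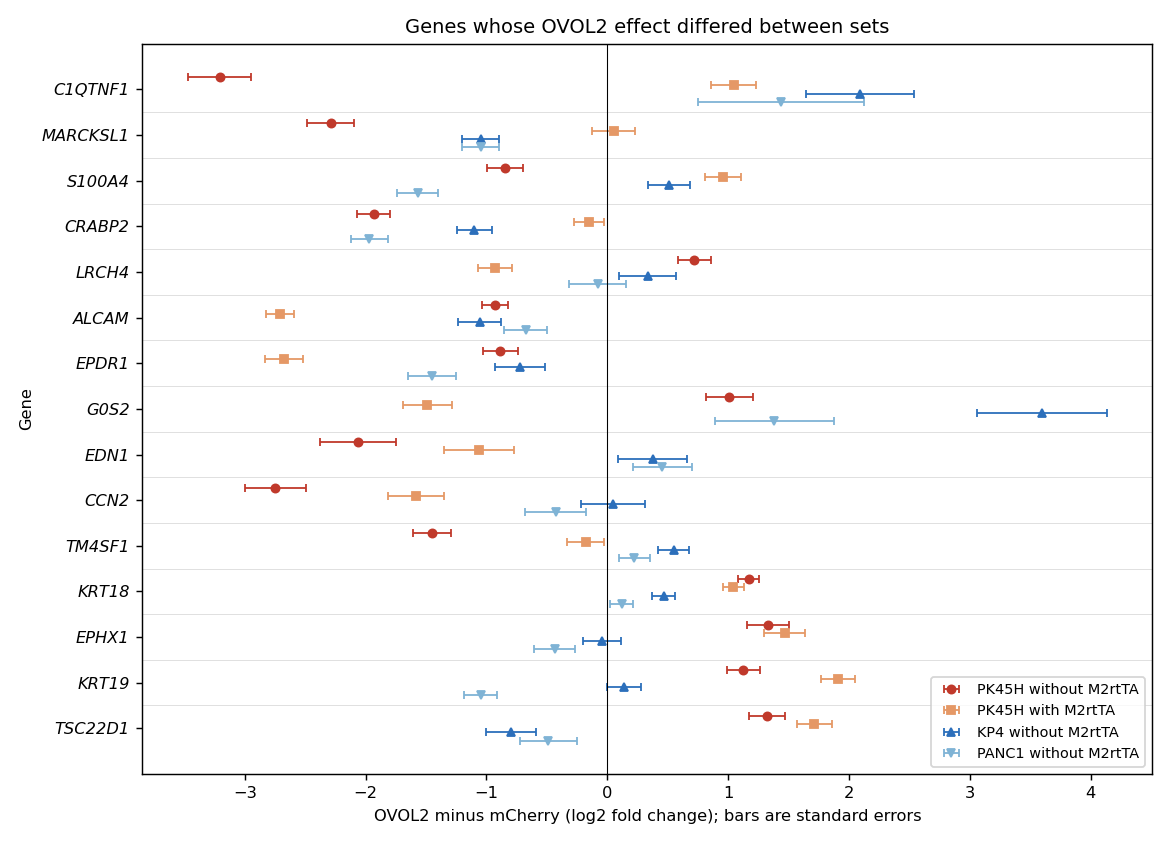
OVOL2 minus mCherry (log2 fold change) with standard errors for 15 genes in PK45H without M2rtTA, PK45H with M2rtTA, and KP4 and PANC1 without M2rtTA. C1QTNF1 lies at −3.21 in PK45H without M2rtTA and above 0 in the other 3 sets. KRT18, EPHX1, KRT19 and TSC22D1 lie higher in both PK45H sets than in KP4 and PANC1. The 15 genes were picked for a difference of effects, so their distance in the sets used for the pick follows from the choice.

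The PK45H effect was also set against the mean of the KP4 and PANC1 effects without M2rtTA, in 1 fit of 45 libraries. The difference passed for 330 of 14943 genes (2.21%), and for 205 without PK45H mCherry replicate 1, 207 without PK45H OVOL2 replicate 2 and 215 without PK45H OVOL2 replicate 3. It was called for 189 of the 1139 genes. These were picked among genes called in PK45H, which favours larger effects there, so their sizes are not compared as a set. Differing genes named below share this limit. In the same fit, OVOL2 against mCherry had 1364 calls in PK45H, 1045 in KP4 and 930 in PANC1. KRT19 rose by 1.12 in PK45H, and changed by 0.14 in KP4 and −1.05 in PANC1, a difference of 1.62 (SE 0.17, edgeR adjusted p = 2.37e-07). KRT18 followed, with a difference of 0.92 (edgeR adjusted p = 1.07e-05). PRSS2 (4.06, edgeR adjusted p = 8.01e-05), C1orf116 (3.59, edgeR adjusted p = 0.000198) and LCN2 (2.40, edgeR adjusted p = 1.97e-05) differed by more. Among genes that fell, TM4SF1, a tumour-associated tetraspan protein, was lower in PK45H (−1.45, SE 0.16, edgeR adjusted p = 5.92e-05) and at 0.55 in KP4 and 0.22 in PANC1, a difference of −1.79 (edgeR adjusted p = 6.01e-09). CCN2 differed by −2.51 and PLAT by −3.42 (edgeR adjusted p = 1.36e-05 and 4.82e-05).

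CDH1, EPCAM and ZEB1 were not shown to differ, but other genes of these programs were. The difference passed for 6 of 29 tested genes of the mesenchymal cytoskeleton and 5 of 27 of mesenchymal surface proteins. It also passed for 5 of 38 collagens and matrix proteins and 4 of 8 keratins. Among all genes tested in PK45H it passed for 325 of 13583. CDH1 rose by 2.56 in KP4 and 1.96 in PANC1, and its difference was 0.70 (SE 0.47, edgeR adjusted p = 0.532). EPCAM rose by 2.18 and 2.53, a difference of −0.51 (SE 0.22, edgeR adjusted p = 0.238), and ZEB1 changed by −2.73 and −2.28, a difference of −0.41 (SE 0.51, edgeR adjusted p = 0.782). The keratin list had a median of 1.14 in PK45H without M2rtTA and 1.54 with it, against 0.15 in KP4 and 0.066 in PANC1. Its members were those that passed the filter in PK45H, KRT15 and KRT81 among them, which favours PK45H. For adherens junctions the medians were 0.63 and 0.35 in PK45H, 0.43 in KP4 and 0.38 in PANC1. For the unfolded protein response and chaperones they were 0.35 and −0.18 in PK45H, −0.037 in KP4 and 0.36 in PANC1. In PK45H with M2rtTA, 6 genes of that list were higher and 4 lower.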

How the data were processed

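Gene counts of 51 PLATE-seq libraries in 17 groups of 3 were used, 6 of them (PK45H OVOL2 and mCherry without M2rtTA) for the comparison described. The authors deposited whole-number counts for 25421 genes in 1 table. Kallisto 0.44.0 and GRCh38 are named in the submitters' processing notes. The annotation, any use of strand, and the handling of molecular identifiers and multi-mapped reads are not given in the sources used here. If reads were not collapsed by identifiers, a single amplified molecule can fill a gene's count in 1 library.

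Counts were fitted with edgeR 4.0.16 in R 4.3.3 (quasi-likelihood test, filterByExpr by group, TMM scaling) over the 15 PK45H libraries in 5 groups, which share 1 estimate of the spread, without a replicate block. Genes with a Benjamini-Hochberg adjusted p under 0.05 were called, and the test was tried on simulated counts first. The standard error is the absolute log2 fold change divided by the root of F. The difference from KP4 and PANC1 was fitted over 45 libraries in 15 groups. Alternatives were RLE scaling, other filters, DESeq2 1.42.0, robust dispersion, a replicate block, thinning, other sets of libraries, untreated cells as control, and leaving out each library; the counts of list members with 1 library left out were added after seeing that mCherry replicate 2 was the shallowest. Library totals of 2439323 to 6051551 limit the precision for genes of a few CPM, and the floor of 3 counts covers counting error only.

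The gene lists, the rules and the comparison were chosen with earlier results of these data known. Named were 7 genes whatever their values, the 12 largest rises and 12 largest falls (called, mean of at least 5 CPM, no overlap), the 6 smallest p-values in each direction, up to 4 called genes per list and direction, and the 4 smallest p-values per direction for each difference test. Other called members of lists, genes with values that did not pass, and NEXN, GPX8 and the genes without counts were named after their values were seen. Some genes that the rule names are not reported here. Promoters are RefSeq's (GRCh38.p14). Libraries with the same replicate number did not deviate together (r = −0.0326, −0.0613 and 0.0321), so numbers were not taken as pairs.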

Additional observations from a re-analysis of the deposited data

Results flagged for a closer look

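The effect of OVOL2 over mCherry in PK45H without M2rtTA was compared with 2 other effects of OVOL2, each by a contrast within 1 edgeR fit. It differed from the effect in PK45H with M2rtTA for 217 genes and from the mean effect in KP4 and PANC1 for 330. The genes listed here had the smallest p-values among those called in PK45H without M2rtTA.

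Against the set with M2rtTA, the effect was more negative for C1QTNF1 (difference −4.25), MARCKSL1 (−2.34), S100A4 (−1.81) and CRABP2 (−1.78). It was more positive for G0S2, a regulator of lipolysis (2.50, edgeR adjusted p = 0.000883), EPDR1 (1.79, edgeR adjusted p = 0.00106), ALCAM (1.78) and LRCH4 (1.65, edgeR adjusted p = 0.00134). G0S2 stood at 57.2, 44.7 and 51.1 CPM with OVOL2 and 28.8, 24.1 and 23.0 CPM with mCherry, but at 15.4, 9.70 and 10.3 against 29.4, 34.7 and 36.0 CPM with M2rtTA. The groups did not overlap in either set, and the order was opposite. G0S2 was not called against untreated cells.

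Against KP4 and PANC1, the effect was more positive for TSC22D1, a leucine-zipper gene induced by TGF-beta (2.00, edgeR adjusted p = 1.07e-05), KRT19 (1.62), EPHX1 (1.61, edgeR adjusted p = 6.4e-06) and KRT18 (0.92). It was more negative for C1QTNF1 (−4.94, edgeR adjusted p = 1.07e-05), CCN2 (−2.51), EDN1, which encodes endothelin 1 (−2.43, edgeR adjusted p = 3.34e-05), and TM4SF1 (−1.79). C1QTNF1 rose in KP4 and PANC1 by 2.09 and 1.44, where it fell by 3.21 in PK45H.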

How the results depend on the processing

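The 1139 calls stayed within 1.5 times that number under 9 of 10 alternatives that kept all 3 libraries of each group, from 907 (libraries thinned) to 1629 (untreated as control), but were 628 in a fit of only the 6 libraries and 701 to 943 with 1 library left out. With the replicate block, 929 genes were called; the same numbers did not pair the libraries. The 217 genes differing from the M2rtTA set became 503 with DESeq2, 116 with the replicate block, 128 in a fit of only the 12 libraries and 93 to 272 with 1 left out. The 330 differing from KP4 and PANC1 ranged from 205 to 334 with 1 left out, 490 with DESeq2 and 302 with the replicate block. For mCherry against untreated, 2 genes were called without a filter, with robust dispersion and with the replicate block, 26 with DESeq2, and 0 to 5 with 1 library left out. Of 172 called genes named by the rule, 0 changed sign, 47 lost the call in some fit with 1 library left out and 52 under another alternative. The fitted change of the OVOL2 gene was −0.20 without mCherry replicate 2 and −0.09 without OVOL2 replicate 3, within a range of −0.20 to 0.77. The cause was not tested. Depth limits genes of a few CPM: ESRP1 and CRB3 missed the threshold once libraries were thinned to the smallest.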
